A study of Mus musculus with 2 samples.

Results

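The potassium channel genes of the mouse spinal cord were taken as the genes whose symbol begins with Kcn, continues with lower-case letters and ends in a number. The rule found 92 of the 51826 genes listed, and used no measured value. They comprised 40 voltage-gated, 15 inward rectifier, 14 two-pore, 8 calcium-activated and related, and 15 auxiliary subunit genes. Whole spinal cords were sampled at postnatal day 7 in strain C57BL/6, and 1 library was sequenced per group. The cKO library came from Olig1-Cre;Secisbp2l-floxed(Ex3) mice, in which Cre driven by Olig1, a gene of the oligodendrocyte lineage, meets Secisbp2l with exon 3 floxed. The WT library came from wild-type mice, and the labels name no Cre or floxed allele in them. The labels give no number of animals per library. No difference below has a replicate check, and no p-value is given.

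Potassium channels let potassium leave the cell, or in some conditions enter it, and so set the resting potential, end the action potential and shape firing. A channel is built from pore-forming subunits around a common selectivity filter, often with auxiliary subunits that alter gating or trafficking. In the cord, neurons carry most voltage-gated channels, axons place some of them at or beside the node of Ranvier under the myelin edge, and glia use inward rectifiers to take up potassium released by firing.

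The cKO library held 55179026 estimated counts and the WT library 42875143. Secisbp2l itself stood at 161 TPM in cKO and 196 TPM in WT, but exon 3 could not be read apart from the rest of the gene. All 10 mature oligodendrocyte markers were lower in cKO, with summed levels of 8067 TPM in cKO and 15589 TPM in WT, and 4 of 5 markers of newly formed oligodendrocytes were lower. None of 5 precursor, 9 astrocyte, 8 microglial or 11 neuronal markers differed by at least 1.5-fold, though 10 of the 11 neuronal markers had a ratio above 1. Summed neuronal markers were 6838 TPM in cKO and 6020 TPM in WT, and summed astrocyte markers were 3762 TPM in cKO and 3744 TPM in WT. Motor neuron markers had a median log2 ratio of −0.03, with 2 of 5 above 0. All 4 meningeal markers had ratios below 1 (median −0.23), and all 3 red blood cell markers had ratios above 1, with summed levels of 4276 TPM in cKO and 2879 TPM in WT. Xist had 13 counts in cKO and 35182 in WT, while 4 Y-linked genes had 1081 to 4280 counts in cKO and 0 in WT, so sex and genotype cannot be told apart. Fewer cells of a type and less RNA per cell also cannot be told apart in whole tissue.

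The pore-forming members shared the selectivity filter that defines the family. The motif searched was 5 consecutive codons in frame: threonine or serine, any residue, glycine, then tyrosine, phenylalanine or leucine, then glycine. It was looked for in the coding sequence of each gene's main protein-coding transcript (GENCODE annotation on GRCm38). It was found in 76 of the 77 pore-forming genes and in 0 of the 15 auxiliary genes. Of 21713 other protein-coding genes, 4.96% held it, and of 4871 with a coding length between the quartiles of the pore-forming members (1257 to 2004 bases), 5.65%. All 14 two-pore genes held 2 copies, while 38 of 40 voltage-gated and all 15 inward rectifier genes held 1. Kcna6 (codons 240 to 244) and Kcnh2 (codons 601 to 605) held an extra match, and a match to the motif alone does not show a filter. Kcnu1, whose main transcript codes for 1143 bases, held none. Filters of members described below are shown to let the classes be compared, in capitals, with 6 flanking bases on each side.
Kcnd3: atgactACACTGGGATATGGAgacatg
Kcnc1: atgacgACACTGGGCTATGGAgacatg
Kcnh6: ctcactAGTGTGGGCTTCGGCaatgtg
Kcnj10: cagaccACCATCGGCTATGGCttccgc
Kcnk9 copy 1: atcacaACTATCGGATATGGAcatgct
Kcnk9 copy 2: ttgactACTATAGGGTTCGGCgatttt
Kcnma1: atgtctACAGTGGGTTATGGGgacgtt
On GRCm38 these lie in coding exons at chr7:46427967-46427993 (Kcnc1, plus strand), chr11:106019070-106019096 (Kcnh6, plus), chr1:172369296-172369322 (Kcnj10, plus), chr15:72512713-72512739 (Kcnk9 copy 2, minus) and chr14:23528407-23528433 (Kcnma1, minus). The Kcnd3 filter on the plus strand of chromosome 3, codons 367 to 371, and the first Kcnk9 filter each cross an exon junction.

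Most potassium channel genes were present, and they spanned a wide range. In each library 90 of the 92 had counts: Kcna7 and Kcnj1 were at 0 in cKO, and Kcne1 and Kcnk16 were at 0 in WT. At these depths a count of 0 allows a level of up to 0.109 counts per 1000000 (CPM) in cKO and 0.140 CPM in WT. Members averaging 1 CPM or more over both libraries, 76 of the 92, are called measured. Of the 16 others, only Kcnh3 is given a ratio here. Levels between genes are compared in transcripts per 1000000 (TPM), which corrects for length. Summed over members, the level was 1900 TPM in cKO and 1667 TPM in WT.

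**Figure D1:**
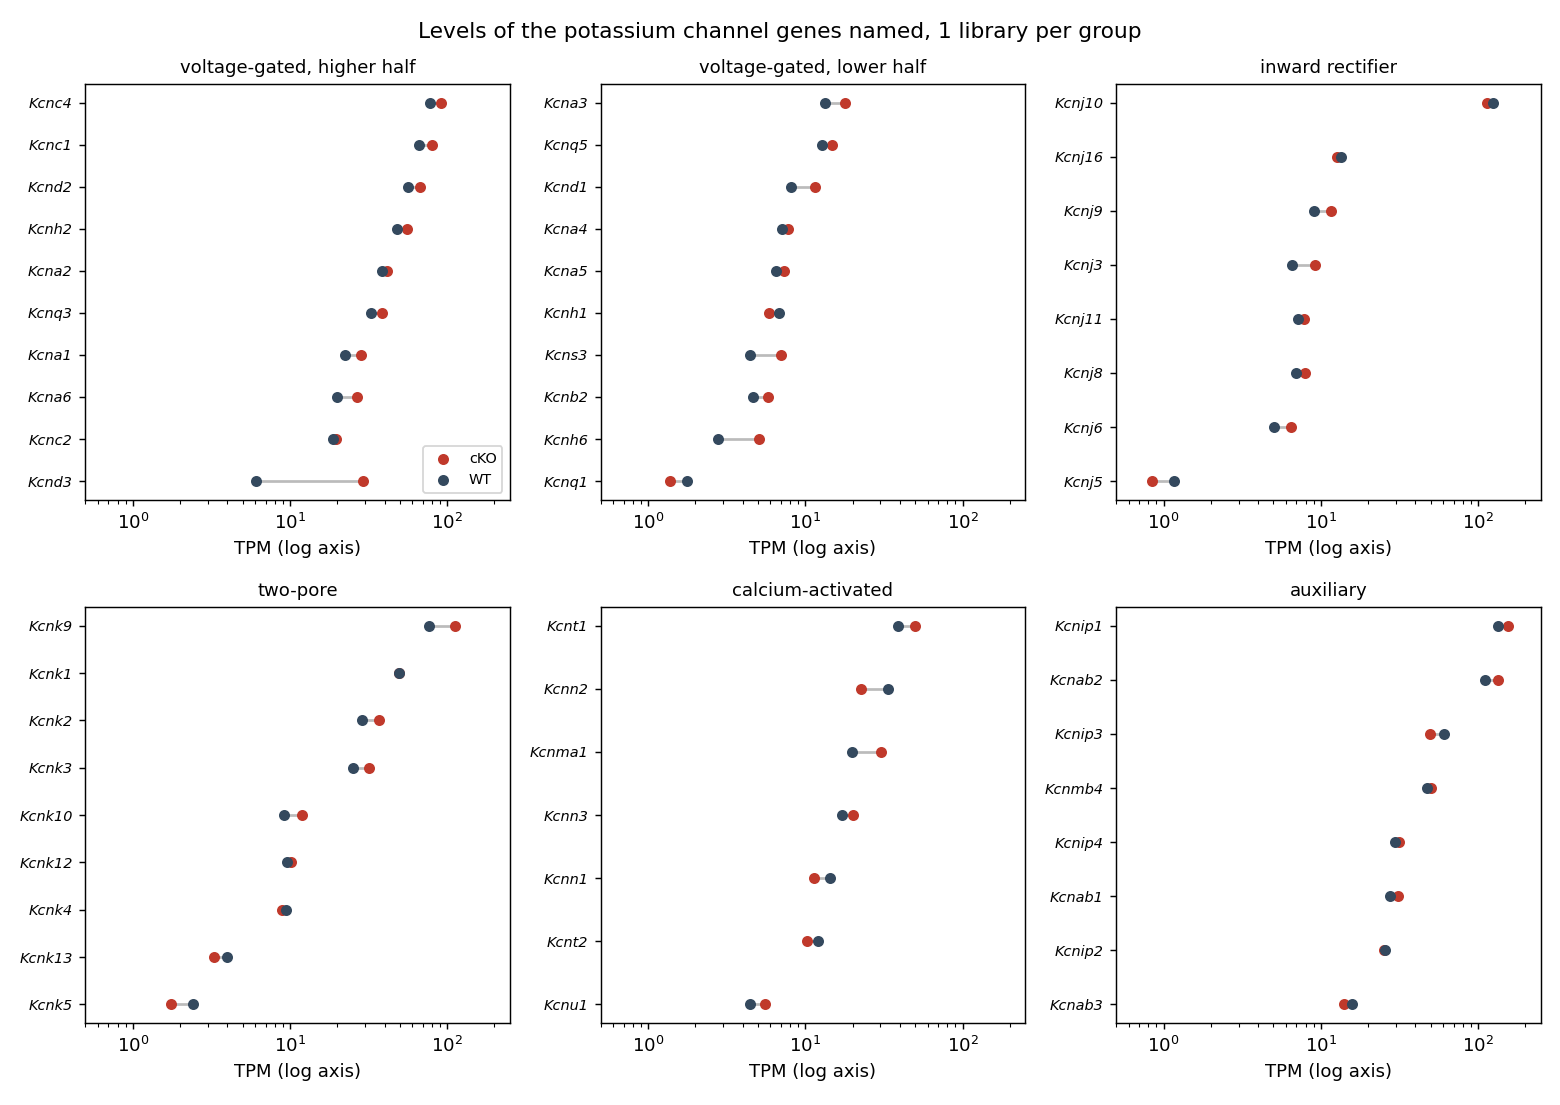
TPM of 52 of the 76 measured potassium channel genes, by class and ordered by level, in the cKO and WT libraries (log scale, 1 point per library). Kcnip1 and Kcnab2, both auxiliary subunits, and Kcnj10 and Kcnk9 stand highest, and for most genes the cKO and WT points lie close together.

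The highest levels belonged to auxiliary subunits, a glial inward rectifier and a background channel. Kcnip1, a calcium-binding partner of the Kv4 channels, stood at 156 TPM in cKO and 134 TPM in WT. Kcnab2, a beta subunit of the Kv1 channels, stood at 135 TPM in cKO and 111 TPM in WT. Kcnj10, the main inward rectifier of glia, was at 114 TPM in cKO and 124 TPM in WT, and Kcnk9, an acid-sensitive background channel, at 112 TPM in cKO and 77.0 TPM in WT. These 4 genes stood above every voltage-gated member in cKO, of which Kcnc4 was the highest at 91.2 TPM in cKO and 77.9 TPM in WT. In WT, Kcnc4 and Kcnk9 were nearly level, at 77.9 and 77.0 TPM.

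Only 3 members differed by the size rule, all higher in cKO: Kcnd3, Kcnh6 and Kcns3. The rule asks for a ratio of at least 1.5-fold on library-scaled CPM, with a 95% exact (Clopper-Pearson) interval of counting error that leaves out 1. They are 3.95% of the 76 measured members, beside 2.46% of all 15917 measured genes that were higher. No member was lower, beside 3.42% of all genes, and 5.88% of all genes differed in either direction. A total of 71 of the 76 lay within 0.5 of 0 on the log2 scale. The median log2 ratio of cKO over WT was 0.12 (quartiles −0.11 and 0.25) for members and 0.01 (quartiles −0.14 and 0.15) for all genes. Ratios above 1 were seen in 50 of 76 members (65.8%) and in 52.3% of all genes. Without Kcnd3 the median was 0.12 as well, with 49 of 75 above 0.

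**Figure D2:**
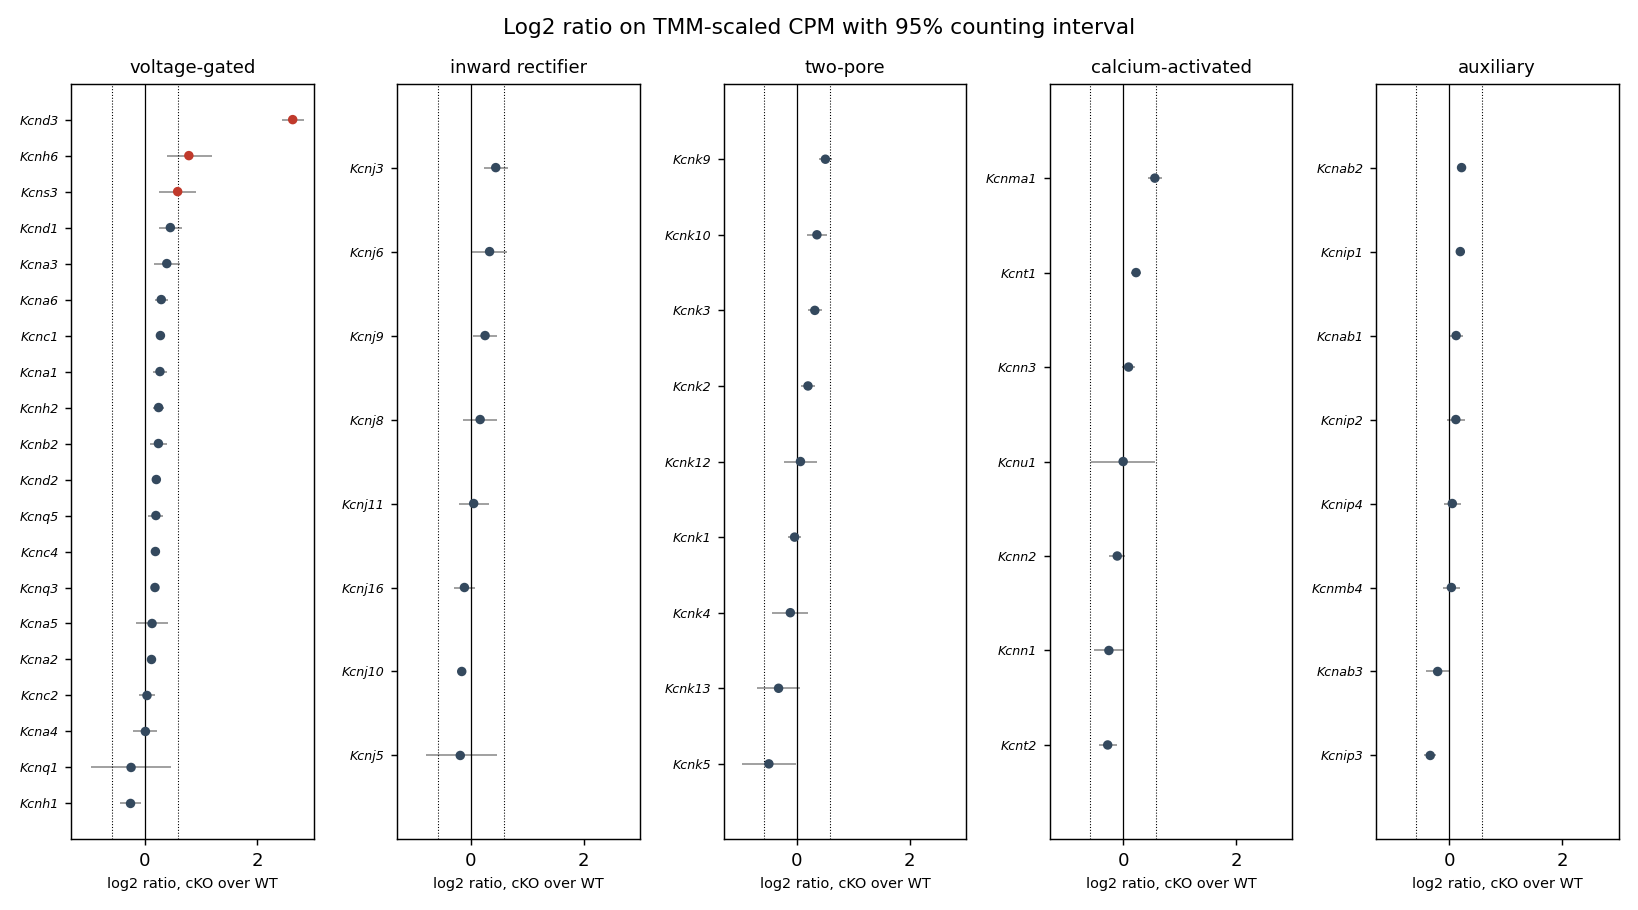
Log2 ratio of cKO over WT on scaled CPM for 52 of the 76 measured potassium channel genes, grouped by class, with 95% exact intervals of counting error, dotted lines at 1.5-fold and members past the size rule in red. Kcnd3 stands apart at 2.63, and voltage-gated genes sit mostly above 0.

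Kcnd3, which encodes the Kv4.3 subunit of the transient A-type current, was the member that differed most. It had 3609 counts in cKO and 455 in WT, and levels of 29.1 TPM in cKO and 6.08 TPM in WT. On TPM the log2 ratio was 2.26, below the interval on CPM. On scaled CPM, which does not correct for length, the log2 ratio was 2.63 (interval 2.43 to 2.83), 6.17-fold higher in cKO. Of all measured genes, 20 had a ratio at least as high, and 8 of those had 0 counts in WT, the 4 Y-linked genes among them. Among the 92 members by TPM, it ranked 23 in cKO and 52 in WT. The gene spans chr3:105452330-105674002 on the plus strand. Its opposite-strand neighbour Kcnd3os, which overlaps it, had 30 counts in cKO and 32 in WT. Ddx20 and Fam212b, within 100000 bases, had log2 ratios of 0.11 and 0.05, while Rap1a, a small GTPase gene, was lower in cKO at −0.67.

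By the authors' estimates, the difference in Kcnd3 lay in its coding transcripts. Kcnd3-202 had 2946 counts in cKO and 220 in WT, with a log2 ratio of 3.38 (interval 3.10 to 3.67). Kcnd3-201 had 541 counts in cKO and 113 in WT, with a log2 ratio of 1.90 (interval 1.49 to 2.35). The retained-intron transcript Kcnd3-204 had 120 counts in cKO and 122 in WT, a log2 ratio of −0.39 (interval −0.92 to 0.15). The coding sequences of these 2 forms differ by a 57-base cassette exon of 19 codons, coding exon 5 of 7, at chr3:105666962-105667018, shown in capitals with 15 flanking bases on each side.
Kcnd3-201: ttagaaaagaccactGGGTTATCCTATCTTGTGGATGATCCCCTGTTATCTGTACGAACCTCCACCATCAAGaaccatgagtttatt
Kcnd3-202: ttagaaaagaccactaaccatgagtttatt
Transcripts with the cassette held 15.6% of the coding counts in cKO (Wilson interval 13.9 to 17.3) and 33.9% in WT (27.2 to 41.4). On TPM the shares were 38.6% in cKO and 63.5% in WT. The authors' estimates divide reads between these forms, and 97.3% of the length of Kcnd3-201 is shared with Kcnd3-202, so the shares are estimates and not a direct count of cassette reads. Kcnd3-204 shares 45.2% of its length with Kcnd3-202, so the split between it and the coding forms is an estimate too.

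**Figure D3:**
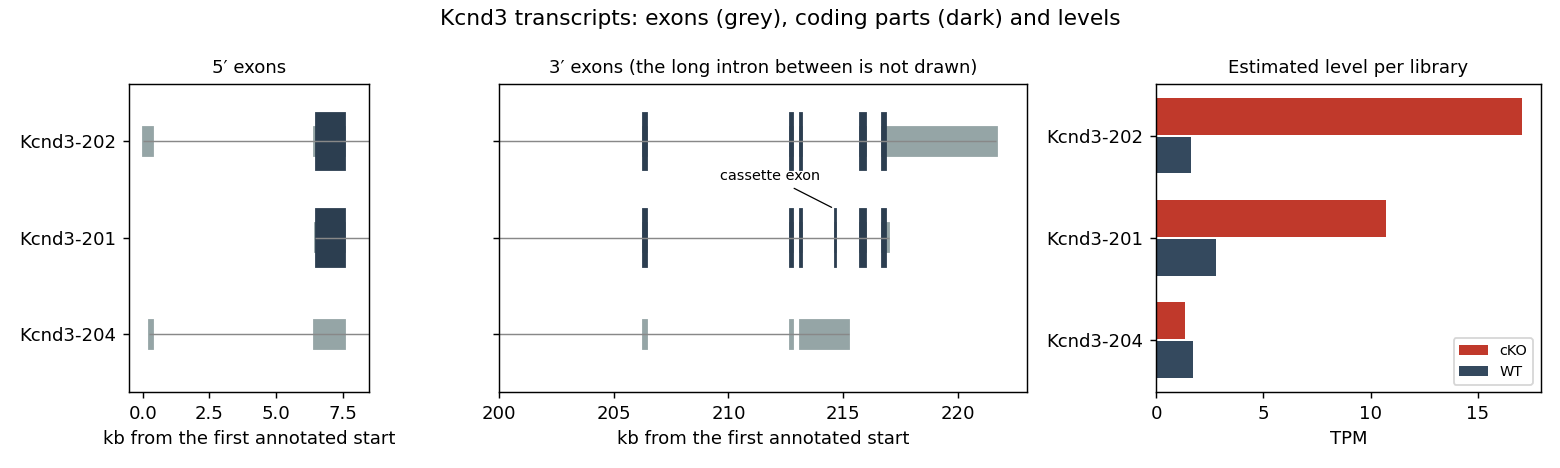
Exons of the Kcnd3 transcripts, by distance from the start of the gene, coding parts dark, beside their TPM in cKO and WT as bars. Kcnd3-202, which lacks the cassette exon, stood at 17.1 TPM in cKO and 1.6 TPM in WT, and Kcnd3-201 at 10.7 TPM in cKO and 2.78 TPM in WT.

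The other Kv4 genes had smaller ratios. Kcnd2, the Kv4.2 subunit of neuronal dendrites, was at 66.9 TPM in cKO and 56.5 TPM in WT, with a log2 ratio of 0.21 (interval 0.14 to 0.28). Kcnd1, the only X-linked member, was at 11.5 TPM in cKO and 8.10 TPM in WT, with a log2 ratio of 0.46. Kcnd2 stood above Kcnd3 in both libraries. The Kv4 partners of the KChIP family had log2 ratios of 0.20 for Kcnip1, 0.12 for Kcnip2, 0.05 for Kcnip4 and −0.34 (interval −0.44 to −0.24) for Kcnip3, which is also known as a calcium-binding transcriptional repressor. Kcnip3 stood at 49.6 TPM in cKO and 60.5 TPM in WT, and none of the 4 met the size rule.

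Kcnh6, an ERG-type channel gene, had 352 counts in cKO and 159 in WT and stood at 5.04 TPM in cKO and 2.78 TPM in WT. Its log2 ratio was 0.78 (interval 0.40 to 1.20). Kcnh6-202, the protein-coding transcript whose filter is shown above, had 126 counts in cKO and 0 in WT, where a count of 0 allows up to 6 counts. All estimated WT counts thus lay in other transcripts, and Kcnh6-204, which is not annotated as protein-coding, was the most counted in both libraries. These are the authors' estimates. With the 126 counts of Kcnh6-202 left out, the gene would fall short of the 1.5-fold line. Kcns3, a silent subunit that joins Kv2 channels, had 463 counts in cKO and 240 in WT and stood at 7.02 TPM in cKO and 4.48 TPM in WT. Its log2 ratio of 0.59 (interval 0.26 to 0.91) lay just inside the 1.5-fold line, and fell short of it with library totals alone (0.58) and on TPM with a pseudocount of 1 (0.55). Just outside the line lay Kcnma1, at 30.5 TPM in cKO and 19.9 TPM in WT (log2 ratio 0.56, interval 0.44 to 0.68), Kcnk9 (0.50, interval 0.39 to 0.62) and Kcnk5 (−0.50, interval −0.98 to −0.02). On TPM, Kcnma1 passed the line, at 0.61 with a pseudocount of 0.1 and 0.59 with 1. Kcnh3, below the level filter with 55 counts in cKO and 12 in WT, had a log2 ratio of 1.83 (interval 0.50 to 3.37) and was higher by the rule when no filter was applied. It overlaps Mcrs1 on the opposite strand, which had 4115 counts in cKO and 3152 in WT.

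Voltage-gated genes sat above 1 as a class. Of 36 measured, 29 (80.6%) had a ratio above 1, with a median log2 ratio of 0.20, beside 0.01 for all genes. Their summed level was 784 TPM in cKO and 648 TPM in WT. All 6 measured Kv1 genes had ratios above 1, among them Kcna1, Kcna2, Kcna4 and Kcna6, which were listed as channels beside the node under the myelin edge. Kcna2 was at 41.5 TPM in cKO and 38.4 TPM in WT (log2 ratio 0.12, interval 0.06 to 0.18), Kcna1 at 28.2 TPM in cKO and 22.5 TPM in WT (0.27) and Kcna6 at 26.6 TPM in cKO and 20.0 TPM in WT (0.29). Kcna3, Kcna5 and Kcna4 had log2 ratios of 0.39 (interval 0.16 to 0.63), 0.13 and 0.01. All 4 Kv3 genes, which let neurons fire fast, were above 1. Kcnc1 was at 79.7 TPM in cKO and 66.3 TPM in WT (0.28, interval 0.22 to 0.34), while Kcnc4 and Kcnc2 had log2 ratios of 0.19 and 0.04. Kcnb2, a delayed rectifier, had a log2 ratio of 0.24. Of the 9 measured silent subunit genes, 7 were above 1. Among the EAG, ERG and ELK genes 4 of 7 were above 1. Kcnh2, an ERG channel that repolarises cells, was the highest of them at 55.2 TPM in cKO and 48.0 TPM in WT (0.25, interval 0.16 to 0.34), and Kcnh1 was below 1 (−0.25, interval −0.43 to −0.07). Among the Kv7 genes, Kcnq3, a subunit of the M current, was at 38.4 TPM in cKO and 32.6 TPM in WT (0.18). Kcnq5 and Kcnq1 had log2 ratios of 0.20 and −0.24 (interval for Kcnq1 −0.95 to 0.48), Kcnq1 with 74 counts in cKO and 68 in WT. Kcnq1 overlaps Kcnq1ot1 on the opposite strand, which had 1604 counts in cKO and 1381 in WT. The juxtaparanodal list of Kv1 and beta subunit genes had a median of 0.12 and 6 of 7 above 1, and the nodal and M current list a median of 0.19 and 4 of 6. No member of either list met the size rule. The neuronal markers had a median of 0.18, the motor neuron markers of −0.03 and the red blood cell markers of 0.53, and their part in the class value was not tested.

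Ratios above 1 were more frequent among members of high level. Among members of at least 50 CPM, 15 of 17 had a ratio above 1 with a median log2 ratio of 0.22, beside 59.3% and 0.04 for all genes at that level. Between 10 and 50 CPM, 21 of 30 were above 1 with a median of 0.11, beside 49.5% and −0.00. Between 1 and 10 CPM, 14 of 29 were above 1 with a median of −0.00, beside 49.1% and −0.01.

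**Figure D4:**
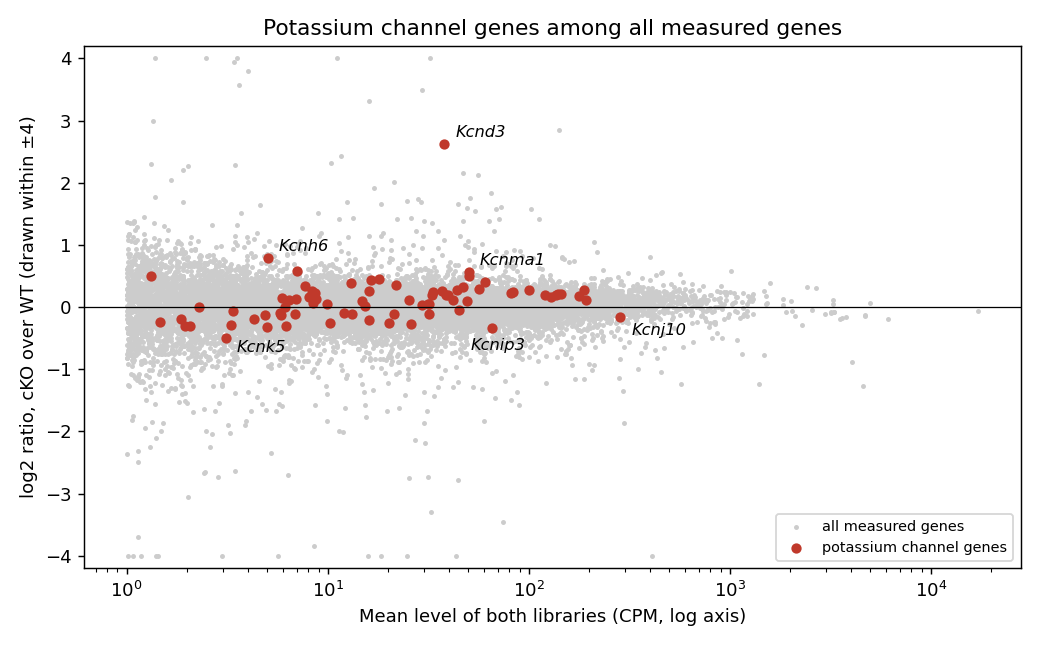
Log2 ratio of cKO over WT against mean CPM (log scale) for measured potassium channel genes (red) and all measured genes (grey), drawn within 4 of 0. Of the 17 members at or above 50 CPM, 15 lie above 0 and Kcnip3 and Kcnj10 below it, and of the 29 below 10 CPM, 14 lie above 0.

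Of 13 measured inward rectifiers, 5 had a ratio above 1, and the median log2 ratio was −0.11. Among the 10 averaging at least 5 CPM the median was 0.02, so its direction turned with the level filter. Their summed level was 192 TPM in cKO and 197 TPM in WT. Kcnj10, which takes up potassium in astrocytes and oligodendrocytes, had 14849 counts in cKO and 12912 in WT, a log2 ratio of −0.16 (interval −0.21 to −0.11). Kcnj16, its partner subunit, was at 12.8 TPM in cKO and 13.5 TPM in WT (−0.11, interval −0.29 to 0.07). The 4 strong rectifiers of the Kir2 type had log2 ratios from −0.30 to −0.00 with a median of −0.12, each with an interval that held 0. Of the 4 G protein-gated genes, 3 were above 1, led by Kcnj3 at 9.17 TPM in cKO and 6.56 TPM in WT (0.44, interval 0.23 to 0.65). Kcnj6 and Kcnj9 had log2 ratios of 0.33 and 0.25, and Kcnj5 of −0.19 with 96 counts in cKO and 85 in WT. Kcnj3 overlaps Gm26794 on the opposite strand, which had 498 counts in cKO and 389 in WT. Kcnj8 and Kcnj11, the pore subunits of ATP-sensitive channels, had log2 ratios of 0.17 and 0.05. Kcnj10 lies 11891 bases from Kcnj9, and the pair sit on opposite sides of 1. Astrocyte markers had a median of −0.05 and mature oligodendrocyte markers of −0.99, and their part in these ratios was not tested.

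Of the 10 measured two-pore genes, which carry background current, 5 had a ratio above 1 and the median was 0.01. The median was 0.20 for the 7 averaging at least 5 CPM and −0.12 for 13 with no filter. The summed level was 269.5 TPM in cKO and 218.5 TPM in WT, to which Kcnk9 contributed most. Kcnk3, its close relative, was at 31.7 TPM in cKO and 25.01 TPM in WT (0.32, interval 0.20 to 0.44). Kcnk1 was at 49.6 TPM in cKO and 49.5 TPM in WT (−0.04). Kcnk13, expressed by microglia, had a log2 ratio of −0.33 (interval −0.70 to 0.05), and Kcnk12, its paralogue, of 0.06. Kcnk2 and Kcnk4, mechanically gated channels found at nodes, had 0.20 and −0.12, and their relative Kcnk10 had 0.35 (interval 0.17 to 0.53).

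The calcium-activated and related genes had a median of 0.00, with 4 of 7 above 1. Kcnma1, the large-conductance pore, is given above. Kcnt1, a sodium-activated channel, was at 49.8 TPM in cKO and 39.1 TPM in WT (0.23), and Kcnt2, its relative, at 10.2 TPM in cKO and 12.02 TPM in WT (−0.27, interval −0.43 to −0.11). Among the small-conductance genes, Kcnn2 was at 22.6 TPM in cKO and 33.7 TPM in WT, although its log2 ratio on counts was −0.10 (interval −0.25 to 0.04). Kcnn3 and Kcnn1 had log2 ratios of 0.10 and −0.25 (interval −0.51 to 0.01). Auxiliary genes had a median of 0.08 and 7 of 10 above 1, and included Kcnab1 (0.12) and Kcnab3 (−0.21) beside Kcnab2 (0.22, interval 0.15 to 0.29). Kcnmb4, a beta subunit of the large-conductance channel in neurons, was at 50.1 TPM in cKO and 47.7 TPM in WT (0.04).

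Transcript shares differed in some genes whose totals did not. Of 351 transcripts of members, 151 were measured, and 23 were higher (15.2%, beside 13.2% of all transcripts) and 10 lower (6.62%, beside 13.0%). In either direction the share of all transcripts was 26.1%. The most counted transcript differed between libraries in 4 of 59 members with several transcripts (6.78%, beside 12.4% of all such genes). In Kcnk2, Kcnk2-203, annotated as subject to nonsense-mediated decay, held 67.4% of counts in cKO and 4.36% in WT, and the coding Kcnk2-201 held 5.80% in cKO and 81.5% in WT. These transcripts share 2970 bases, 94.9% of the length of Kcnk2-203 and 90.1% of that of Kcnk2-201. All shares of counts here are the authors' estimates. In Kcnn2, Kcnn2-208 held 0% in cKO and 60.8% in WT, and Kcnn2-205 held 56.9% in cKO and 10.7% in WT. All 1725 bases of Kcnn2-208 lie within Kcnn2-205. In Kcnc2, Kcnc2-201 held 43.8% in cKO and 14.6% in WT, and Kcnc2-203 held 17.6% in cKO and 52.4% in WT. The bases shared by Kcnc2-201 and Kcnc2-203 are 70.3% and 81.1% of their lengths.

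**Figure D5:**
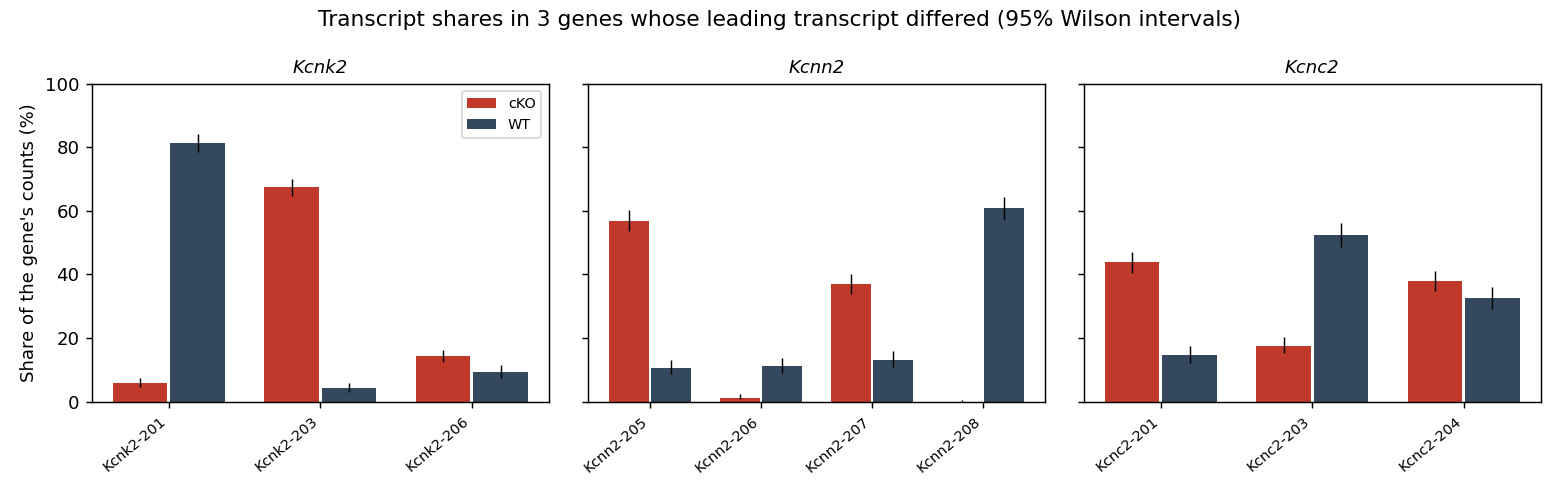
Share of a gene's estimated counts in each library, in percent with 95% Wilson intervals, for transcripts with at least 10% of counts in 3 of the 4 members whose most counted transcript differed. In Kcnk2, Kcnk2-201 holds 5.80% in cKO and 81.5% in WT.

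Lists of other genes of the same systems had medians on either side of the members' median of 0.12. Of 16 genes found for 15 listed channel partners, such as trafficking and scaffold proteins, 14 were measured, 11 were above 1, and the median was 0.21. Only 1 of the 14 met the size rule (7.14%, beside 2.46% of all measured genes that were higher). It was an entry of Dlg2, a scaffold protein of synapses and juxtaparanodes, at 15616 counts in cKO and 6585 in WT. Its log2 ratio was 0.88 (interval 0.82 to 0.94). A second Dlg2 entry, with 119 counts in cKO and 74 in WT, did not meet the rule (0.32, interval −0.31 to 0.94). Cntnap2, which holds Kv1 channels beside the node, had −0.27 (interval −0.33 to −0.20), and Cntn2, its partner, 0.41 (interval 0.28 to 0.53). All 4 HCN channel genes were above 1, with a median of 0.14, and none met the rule. Of 11 pumps and cotransporters, 6 were above 1 with a median of 0.00. Slc12a2, a chloride importer, had −0.47 (interval −0.53 to −0.41).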

How the data were processed

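Whole spinal cord RNA was measured in 1 cKO and 1 WT library. Per the labels' protocols, Trizol was used for extraction and an mRNA kit for the libraries. CASAVA, Bowtie2 2.3.2 and the build GRCm38.p6 appear in the submitters' processing notes, which assign them no step. Which counter and strand setting were used is not given in the sources here. Per the file headers, the deposited tables hold FPKM, TPM and estimated counts for every gene and transcript. The deposited counts are rounded estimates: 98.8% (cKO) and 98.9% (WT) of low transcripts' counts equalled FPKM times length times a constant, rounded up. Low single-transcript genes lay near even values (29.6% in cKO, 31.1% in WT) somewhat more often than near odd ones (23.2% in cKO, 22.4% in WT; within 0.2), and an expected count of 2 was taken as 1 fragment.

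Counts were scaled with edgeR 4.0.16 TMM factors (0.9994 for cKO, 1.0006 for WT), and log2 ratios used no pseudocount. Intervals and floors (3 fragments, 6 counts) cover counting error only. With 1 library per group no test was run. The interval script was tested on simulated data. Alternatives used library totals, DESeq2 1.42.0 size factors, upper quartile factors, TPM, other filters, a 2-fold line and reads in place of fragments.

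The members and gene lists were chosen with earlier results of these data known. Named genes were those past the size rule, in each class the 6 of highest TPM and the 3 highest and 3 lowest ratios, and members of glial Kir, juxtaparanodal, nodal, KATP and THIK lists; others named were chosen after their values were seen. Exons and sequences came from the GENCODE annotation. Of measured members, 21 overlap an opposite-strand gene with counts and 1 a same-strand gene, so reads there may be assigned to either. Some members that the rule takes are counted in the totals but not reported by name here.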

Additional observations from a re-analysis of the deposited data

How the results depend on the processing

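No paired analysis was possible because each group has 1 library. With a 2-fold line, 1 member (Kcnd3) was higher. The median log2 ratio of the calcium-activated class, 0.00, was 0.22 on TPM with a pseudocount of 0.1 and 0.21 with 1; the cause was not tested. With a mean of at least 5 CPM, the inward rectifier median turned to 0.02 (main −0.11) and the two-pore median was 0.20 (main 0.01; −0.12 with no filter), where other members enter or leave the class. Members counted higher were 2 with library totals alone, 4 on TPM with a pseudocount of 0.1 and 4 with no filter, and 3 under the others run; none was lower under any, and no named gene past the size rule changed direction. Of 53 named genes, 53 kept their call with DESeq2 or upper quartile factors and with each count as 1 read, 52 with library totals. On TPM fewer stayed the same, 47 with a pseudocount of 0.1 and 48 with 1. Kcnd3, Kcnn2, Kcnk2 and Kcnt1 left their main intervals with both, and Kcna6 and Kcnn3 with 0.1 alone. Kcnd3 moved to 2.24 with 0.1 and 2.09 with 1, and is counted as the same because it still passed the line. Kcnma1 passed the line with both, and Kcns3 fell short with 1. Summing CPM in place of TPM per class, chosen after seeing the data, kept each direction. On TPM, Kcnn2 stood at −0.57 and −0.56. Counts of low members limit their ratios, and whole-tissue RNA from 1 library per group gives no error between animals.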
